A study of Mus musculus with 12 samples.

Results

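The clustered histone genes are the histone genes of the mouse Hist1, Hist2, Hist3 and Hist4 clusters, most of them replication-dependent. They were taken here as every gene of the expression table whose symbol begins with Hist1h, Hist2h, Hist3h or Hist4h, which gave 46 of 22548 genes. This rule does not set apart members that are not replication-dependent. By symbol, 6 are of linker histone H1, 10 of H2A, 14 of H2B, 7 of H3 and 9 of H4. The H2B members include the processed pseudogene Hist3h2bb-ps. The data come from RNA-seq of long-term HSCs (hematopoietic stem cells that are Lineage-negative c-Kit+ Sca1+, CD34-/low and Flk2-; LT-HSCs), which were sorted from C57BL/6 mice. The 3 groups were untreated young HSCs (mice of 2 to 4 months, n = 4, replicates 2 to 5), untreated aged HSCs (20 to 26 months, n = 5, replicates 0 and 2 to 5) and aged HSCs exposed to 5 µM CASIN, an inhibitor of Cdc42 activity (n = 3, replicates 1 to 3). All 3 groups, controls included, had spent 16 h in HBSS with serum at 3% oxygen, so none is a freshly isolated cell. The study's methods give 1000 pooled cells per library and separate biological repeats, the sample labels at least 200 cells, and first-strand cDNA was primed with oligo dT together with selective primers.

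A replicating cell must make a full set of nucleosomes during S phase, and the clustered histone genes supply the bulk of these proteins. Most lack introns, and their mRNAs are unusual among those made by RNA polymerase II because they normally end just past a short hairpin, the histone stem-loop, instead of in a poly(A) tail. The stem-loop is bound by SLBP, which is needed for 3' end cleavage and translation, and the mRNAs are degraded when DNA synthesis stops. LT-HSCs are largely quiescent. Replacement histones such as H3.3, encoded outside these clusters, carry poly(A) tails and are made throughout the cell cycle.

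The stem-loop is shown first because it is the feature that sets the 3' end of these mRNAs. The pattern searched, on the transcript's own strand, was a stem of 6 base pairs closed by a loop of 4 bases of any kind, the first arm being GG, a run of 3 pyrimidines and T, and the second arm its exact complement. It was found in a GENCODE transcript of 30 of the 46 members (65.2%), with the arm GGCTCT or GGCCCT. Bases outside the GENCODE transcripts were not searched, so a member without a match is not shown to lack the stem-loop. For example, the GENCODE transcript of Hist1h2af has 399 nt and its RefSeq span 504 bases. For Hist1h4k they are 312 nt and 409 bases. The same pattern was found in 185 of 55295 other genes (0.335%), 16 of which are clustered histone genes outside the table. Capitals mark the paired arms of the stem, and positions are on mm10.
Hist1h1c (chr13:23739507-23739532, plus strand): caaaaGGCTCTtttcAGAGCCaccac
Hist1h1e (chr13:23621777-23621802, minus strand): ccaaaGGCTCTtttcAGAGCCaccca
Hist3h2a (chr11:58955167-58955192, plus strand): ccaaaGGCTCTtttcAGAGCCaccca
Hist2h2ac (chr3:96220413-96220438, minus strand): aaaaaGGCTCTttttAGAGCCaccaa
Hist1h3f (chr13:23544927-23544952, plus strand): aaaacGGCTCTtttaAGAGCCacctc
Hist1h4d (chr13:23581945-23581970, plus strand): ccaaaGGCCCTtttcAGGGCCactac
Hist1h4f (chr13:23551286-23551311, minus strand): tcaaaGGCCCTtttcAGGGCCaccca
Hist4h4 (chr6:136803993-136804018, minus strand): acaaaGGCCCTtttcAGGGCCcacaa
The core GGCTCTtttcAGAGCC was the most frequent, with 15 members that encode H1, H2A, H2B or H3. All 8 H4 genes with a stem-loop carried the GGCCCT arm, 5 of them as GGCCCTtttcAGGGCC, and no gene of another type did. Hist1h2be, whose longest transcript is spliced, carried the same 26 bases as Hist1h1e, with which it overlaps in GENCODE. Hist3h2a and Hist1h3b, which lie elsewhere, carried these 26 bases too, so the match does not tell the locus. The stem-loop of Hist1h2be was not placed on the genome. Hist2h2be, an H2B gene, carried no such pattern in its 2620-nt GENCODE transcript, which holds a poly(A) signal (AATAAA or ATTAAA) in its last 40 nt, as did the longest transcript of 13 of the 46 members. In 28 of the 29 members whose stem-loop could be placed on the genome, the RefSeq gene ended within 10 bases after the stem, and Hist1h2bp was the exception. GENCODE transcripts often ran further, and in 17 of the 30 members the stem-loop lay more than 100 nt before the transcript's end.

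The members lay in 5 places of the genome. The Hist1 members filled 2 blocks of chromosome 13, with 24 genes at chr13:23531044-23934913 and 11 at chr13:21717628-22042949. The 7 Hist2 genes lay at chr3:96219885-96270192, the 3 Hist3 genes at chr11:58948911-58955192, and Hist4h4 at chr6:136803993-136804431. Many copies of one histone type are close in sequence, and 42 of the 46 members shared at least 1 stretch of 50 bases with another gene, Hist1h1a, Hist1h1b, Hist1h1t and Hist2h2be being the exceptions. In 14 members at least 50% of all such stretches were shared. For the members that share sequence the value of a single copy is uncertain, because the rule by which shared reads were assigned is not given.

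The clustered histone genes were rarely detected in these libraries. A gene is called detected here where its value stood above the lowest value of the sample, which all undetected genes share. Young HSCs had 1, 4, 3 and 4 of the 46 members detected (replicates 2 to 5), aged HSCs 7, 7, 5, 5 and 5 (replicates 0 and 2 to 5) and CASIN-treated HSCs 6, 9 and 3 (replicates 1 to 3). The mean share of members detected (± SD) was 6.52% ± 3.07 for the 4 young, 12.6% ± 2.38 for the 5 aged and 13.0% ± 6.52 for the 3 CASIN-treated samples. Every young sample lay below every aged sample, and the CASIN-treated samples spanned both.

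The share of all genes detected moved in the same way, from 34.3% ± 7.56 for young to 62.6% ± 11.9 for aged and 50.5% ± 33.2 for CASIN-treated samples (mean ± SD). CASIN replicate 2 stood apart, with 20013 genes detected against 6845 and 7288 in the other CASIN-treated samples. Divided by the share of all genes in the same sample, the share of members was 0.081 to 0.299 in young, 0.183 to 0.214 in aged and 0.202 to 0.430 in CASIN-treated HSCs, and the 3 ranges overlapped. Fewer cells of a kind and less RNA per cell cannot be told apart in these bulk samples, and the part of library complexity in the member counts was not tested. With each sample limited to its 6078 highest genes (the number that the sparsest library detected, ties included), 1, 2, 1 and 4 members were found in young, 0, 1, 0, 0 and 2 in aged, and 5, 0 and 2 in CASIN-treated HSCs. On that scale the aged samples no longer lay above the young ones. This way of counting was chosen after seeing the data.

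**Figure D1:**
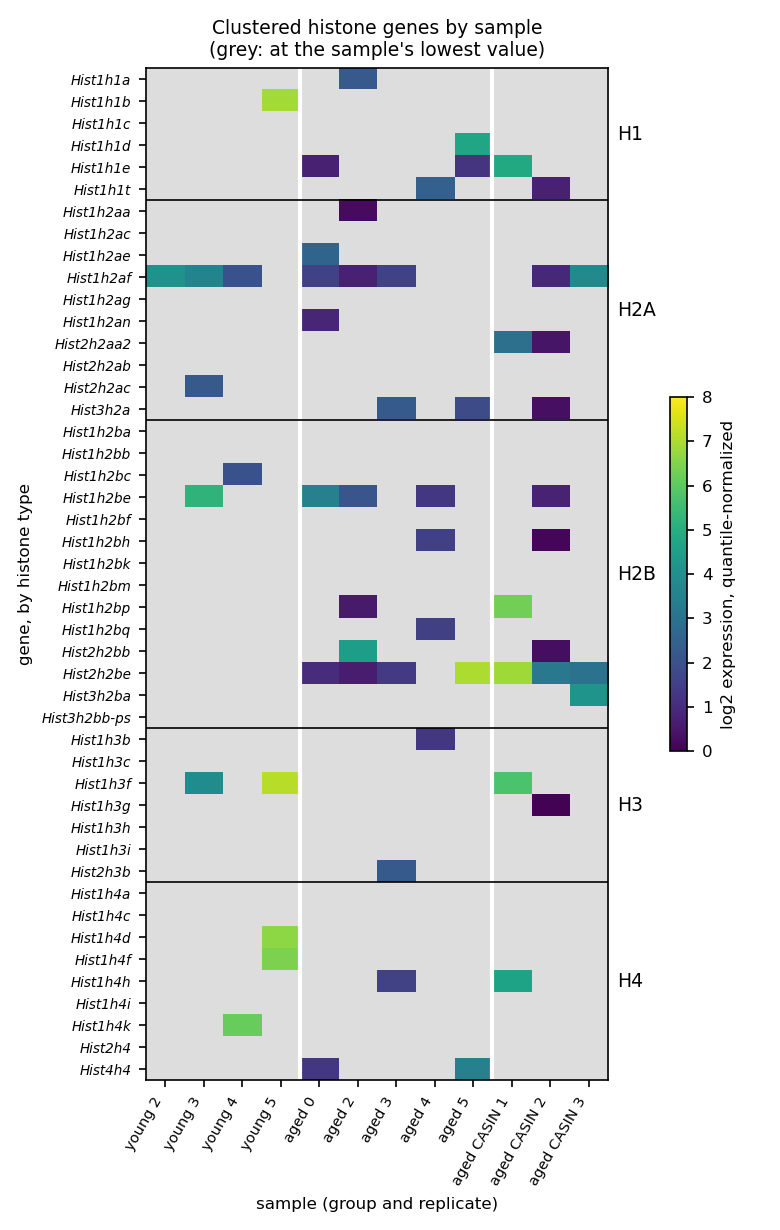
Heatmap of log2 expression (quantile-normalized by the authors) of the 46 clustered histone genes, grouped by histone type in rows, in the 12 samples in columns; grey marks a gene at the lowest value of its sample. Only 59 of 552 cells are coloured, and the rows of Hist1h2af and Hist2h2be are the most often filled, in 8 and 7 samples.

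Over all 12 samples, the members were detected in 59 of 552 gene-sample pairs (10.7%), against 50.2% for all genes of the table. None was detected in 10 or more samples, and 17 members (37.0%) were detected in none, against 412 of all genes (1.83%). A further 16 were detected in 1 sample, 7 in 2 samples and 6 in 3 or more. Detections were spread over different genes in different samples. The 9 members seen in any young sample, the 19 in any aged sample and the 14 in any CASIN-treated sample shared only Hist1h2af and Hist1h2be. Detected members often stood at a value shared by many genes of the sample. In 41 of the 59 detections at least 100 other genes had exactly the same value, and in 8 the member sat at the commonest detected value of its sample.

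**Figure D2:**
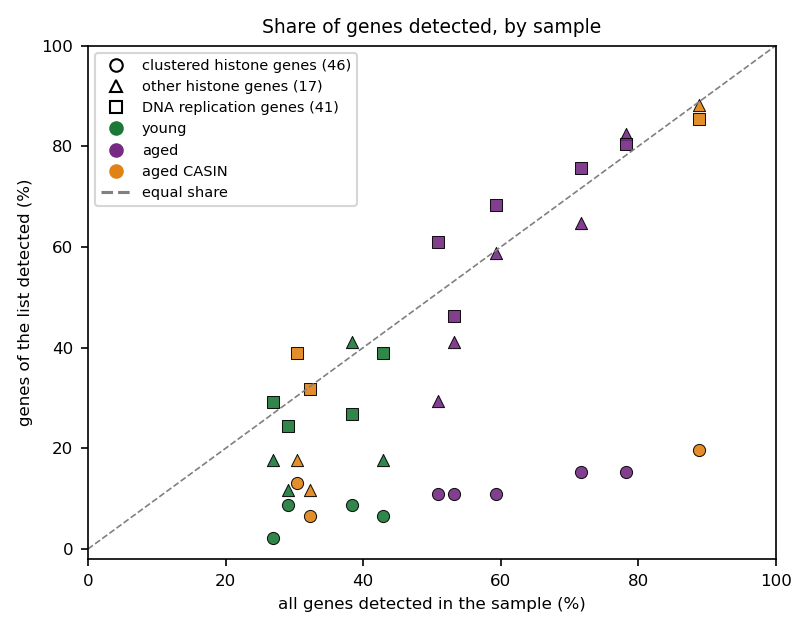
Share of genes detected in each sample (y axis, %) for the 46 clustered histone genes (circles), 17 histone genes outside the clusters (triangles) and 41 DNA replication genes (squares), against the share of all genes detected in that sample (x axis, %), coloured by group; the dashed line marks equal shares. The clustered histone genes stay between 2.17% and 19.6% while all genes range from 27.0% to 88.8%.

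Related gene groups were detected far more often than the clustered histone genes in the same libraries. The 17 listed histone genes outside the clusters, among them the variants H2afz and H3f3a, were detected in 40.2% of gene-sample pairs. The 16 genes of histone mRNA control, among them Slbp, Npat (a coactivator of histone genes) and Eri1 (an exonuclease of the histone mRNA 3' end), were detected in 64.6%. The value was 70.8% for 24 histone chaperones and 50.6% for 41 DNA replication genes. All genes of the table stood at 50.2%, above the histone genes outside the clusters and close to the replication genes. H3f3a, one of the 2 genes for H3.3, was detected in 10 of 12 samples, and Npat in 11. At least 10 samples were reached by 1 of the 17 histone genes outside the clusters and 5 of the 16 of histone mRNA control. These shares describe the libraries and carry no test.

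By histone type, the counts per sample were small. Of the 14 H2B genes, 0, 1, 1 and 0 were detected in the young samples, 2, 4, 1, 3 and 1 in the aged samples and 2, 4 and 2 in the CASIN-treated samples. Every CASIN-treated sample thus lay above every young sample, and the aged samples overlapped with both. This separation rested on Hist2h2be, since without it the counts were 1, 3 and 1 in the CASIN-treated samples and 0, 1, 1 and 0 in the young samples. As shares of the type (mean ± SD), H2B stood at 3.57% ± 4.12 in young, 15.7% ± 9.31 in aged and 19.0% ± 8.25 in CASIN-treated HSCs. For H1 the shares were 4.17% ± 8.33, 16.7% ± 11.79 and 11.1% ± 9.62, and for H2A 10.0% ± 8.16, 16.0% ± 11.4 and 16.7% ± 11.5. H3 had 7.14% ± 8.25, 5.71% ± 7.82 and 9.52% ± 8.25, and H4 had 8.33% ± 10.6, 6.67% ± 6.09 and 3.70% ± 6.42. In these 4 types the ranges of all 3 groups overlapped, and the SD was often as large as the mean.

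Of the H1 genes, which encode the linker histones that bind between nucleosomes, 5 of 6 were detected in some sample. Hist1h1e was detected in 3 samples, namely aged replicate 0 at 0.75, aged replicate 5 at 1.21 and CASIN replicate 1 at 4.86. Hist1h1b was detected only in young replicate 5, at 6.89. Hist1h1c stood at the lowest value in all 12 samples. Hist1h1e and Hist1h2be overlap on the same strand in GENCODE. Their RefSeq spans do not overlap (chr13:23621777-23622558 and chr13:23583670-23621124). Whether reads of the one were counted under the other was not tested.

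The H2A genes showed the most frequent single member. Of the 10, 7 were detected, in 17 of 120 gene-sample pairs (14.2%). Hist1h2af (chr13:23533875-23534378 in RefSeq) was detected in 8 samples, more than any other member. Its log2 values were 4.11, 3.59, 2.03 and 0.65 in young HSCs, 1.57, 0.74, 1.54, 0.22 and 0.16 in aged HSCs and 0.63, 0.89 and 3.82 in CASIN-treated HSCs. Young replicate 5, aged replicates 4 and 5 and CASIN replicate 1 stood at the lowest value of their sample, and the 3 groups overlapped. In young replicate 2 its value was the commonest detected value, shared with 851 other genes. Hist1h2af shares 79.7% of its 50-base stretches with other genes, so reads of other H2A copies could be counted under its name. Hist2h2aa2 was detected in CASIN replicates 1 and 2, at 2.94 and 0.47. Hist3h2a, which overlaps Trim17 on the same strand in GENCODE, was detected in aged replicates 3 and 5 (2.25 and 1.87) and CASIN replicate 2 (0.31). Hist1h2ac, Hist1h2ag and Hist2h2ab were detected in none.

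Of the 14 H2B genes 8 were detected, in 21 of 168 pairs (12.5%). Hist2h2be (chr3:96221072-96223738 in RefSeq, plus strand) had the highest mean of the 3 group means of any member (2.32). Whether the deposited values are per length is not given, so levels of different genes are not ranked further. Its log2 values were 0.67, 0.48, 0.43 and 0.65 in young HSCs, each the lowest value of its sample. In aged HSCs they were 1.01, 0.63, 1.36, 0.22 and 7.03, and in CASIN-treated HSCs 6.84, 3.22 and 3.03. The gene was thus detected in 0 of 4 young, 4 of 5 aged and 3 of 3 CASIN-treated samples, and aged replicate 5 lay above the highest CASIN-treated sample. In aged replicate 3 and CASIN replicate 3 its value was the commonest detected one, shared with 1114 and 1031 other genes. None of its 50-base stretches was shared exactly with another gene. Whether shorter reads or reads with mismatches could be shared was not tested.

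Hist1h2be, an H2B gene with a RefSeq span of chr13:23583670-23621124, was detected in 5 samples. Its values were 0.67, 5.19, 0.43 and 0.65 in young, 3.48, 2.12, 0.23, 1.30 and 0.16 in aged, and 0.63, 0.77 and 0.58 in CASIN-treated HSCs. The highest value came from young replicate 3, the only young sample in which it was detected. The groups overlapped. Hist1h2ba, Hist1h2bb, Hist1h2bf, Hist1h2bk, Hist1h2bm and the pseudogene Hist3h2bb-ps were detected in none.

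The core histones H3 and H4 were the least often detected. The 7 H3 genes were found in 6 of 84 pairs (7.14%) and the 9 H4 genes in 7 of 108 (6.48%). Hist1h3f alone among the H3 genes reached 3 samples. It was detected in young replicates 3 and 5 at 3.88 and 7.13 and in CASIN replicate 1 at 5.73, and it was undetected in each of the 5 aged samples. Hist2h3b (aged replicate 3, 2.25) was detected once. Among the H4 genes, Hist1h4d and Hist1h4f were both detected only in young replicate 5, at 6.63 and 6.42, and Hist1h4h in aged replicate 3 and CASIN replicate 1, at 1.54 and 4.64. Hist1h3c, Hist1h3h, Hist1h3i, Hist1h4a, Hist1h4c, Hist1h4i and Hist2h4 were detected in none.

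**Figure D3:**
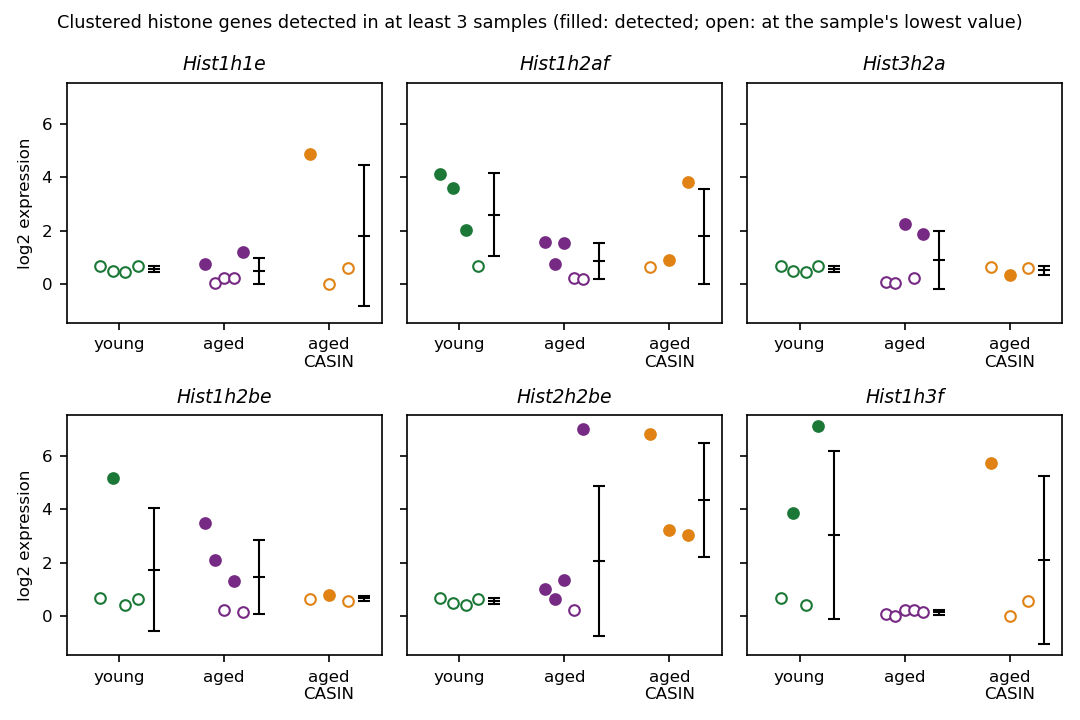
Log2 expression of the 6 clustered histone genes detected in at least 3 samples, by group; filled points are detected values, open points lie at the lowest value of their sample, and bars give the mean ± SD (n = 4 young, 5 aged, 3 aged CASIN-treated). Hist2h2be is open in all 4 young samples and filled in all 3 CASIN-treated samples, and in the other panels each group that holds filled points also holds open ones.

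For each comparison the question was which clustered histone genes differed between the groups by more than the replicates did. In young against aged HSCs no member passed an adjusted p of 0.05 (limma, Benjamini-Hochberg over all genes), a threshold passed by 4 of 22548 genes (0.0177%). At an unadjusted p under 0.05, 0 members were higher in young HSCs, where 2.13% of all genes were, and 0 were lower, where 3.2% were. When samples were centred on the genes detected in all of them, 4 members passed the unadjusted threshold, each as higher in young HSCs (8.7% of members against 4.83% of all genes), and the calls among all genes went from 480 higher and 722 lower to 1089 higher and 359 lower. With 1 common lowest value they were 328 higher and 845 lower. Centring moved every difference by 0.45 in young minus aged, 0.35 in CASIN minus aged and -0.10 in CASIN minus young. With limma-trend 25 members passed, each as higher in young HSCs (54.3% of members against 7.16% of all genes). Of these 25, 18 were detected in no young and no aged sample, where the difference is that of the lowest values. No member had groups that did not overlap with every sample of the higher group detected, which 0.341% of all genes had with young higher and 1.61% with aged higher. The smallest p among the members was that of Hist1h2bc (0.0612), a gene detected in 1 young sample. The p-values measure only the spread between these samples. Hist1h2af averaged 2.60 ± 1.57 (SD) in the 4 young and 0.85 ± 0.68 in the 5 aged samples, a log2 difference of 1.75 ± 0.85 (SE) with an adjusted p of 0.764 in limma. Hist1h3f averaged 3.03 ± 3.15 in young and 0.14 ± 0.095 in aged HSCs, and its difference of 2.89 ± 1.47 (SE) had the same adjusted p in limma. Without young replicate 5 the difference of Hist1h3f was 1.52. Its unadjusted p was under 0.05 without young replicate 2 (0.0407), young replicate 4 (0.0349) or CASIN replicate 1 (0.0397), and that of Hist1h2af without young replicate 5 (0.0159) or CASIN replicate 3 (0.0351).

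In aged CASIN-treated against untreated aged HSCs, the comparison of drug against control within aged cells, no member passed the adjusted threshold, which 5 genes passed (0.0222%). At an unadjusted p under 0.05, 0 members were higher after CASIN, against 2.48% of all genes, and 0 lower, against 1.92%. The calls among all genes were 559 higher and 434 lower as deposited, 972 and 217 after centring, and 411 and 485 with 1 common lowest value. No member's groups lay apart with every sample of the higher group detected, which held for 0.687% of all genes with CASIN higher and 1.45% with aged higher. Hist2h2aa2 had the smallest p (0.0501), with a log2 difference of 1.19 ± 0.54 (SE). The difference was 0.38 without CASIN replicate 1 (unadjusted p = 0.313), 1.62 without replicate 2 (0.0162) and 1.56 without replicate 3 (0.0254). Hist2h2be averaged 2.05 ± 2.82 (SD) over the 5 aged and 4.36 ± 2.15 over the 3 CASIN-treated samples. Its difference of 2.31 ± 1.46 (SE) had an adjusted p of 0.948 in limma, and it ran from 1.07 without CASIN replicate 1 (unadjusted p = 0.507) to 3.56 without aged replicate 5 (unadjusted p = 0.00186, adjusted p = 0.725 in limma). Hist1h1e differed by 1.33 ± 0.92 (SE), a value that rested on CASIN replicate 1 and was -0.20 without it. Without CASIN replicate 2 it was 2.23 with an unadjusted p of 0.0370.

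In aged CASIN-treated against young HSCs, which share neither age nor treatment, 0% of genes passed the adjusted threshold and no member did. One clustered histone gene, Hist2h2be, passed the unadjusted threshold as higher in CASIN-treated HSCs, that is 1 of 46 members where 2.9% of all genes passed in this direction. No member passed as lower, where 1.39% of all genes did. Its difference was 3.80 ± 1.53 (SE; unadjusted p = 0.0304, adjusted p over all genes = 0.9995 in limma with Benjamini-Hochberg adjustment). The 3 CASIN-treated samples were above all 4 young samples and all detected, which 1.4% of all genes showed with CASIN higher, against 0.674% in the opposite direction. All young samples stood at the lowest value, so the size of the difference depends on that value. The unadjusted p ranged from 0.00119 (without aged replicate 5) to 0.143 (without CASIN replicate 1, difference 2.56), and it also missed 0.05 without young replicate 3 (0.0527) or 4 (0.0539), with limma-trend (0.0542) and with the replicate number as a block (0.0920). It was under 0.05 in 15 of 20 alternatives.

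The median log2 difference of the 46 members was 0.42 in young minus aged, 0.26 in CASIN minus aged and -0.16 in CASIN minus young, against -0.017, -0.038 and -0.092 for all genes. These medians are the differences between the mean lowest values of the groups. The mean lowest value was 0.56 in young, 0.14 in aged and 0.40 in CASIN-treated HSCs, and 20, 23 and 26 members were detected in neither group of the respective comparison. Hist1h1c, detected in no sample, showed the same 3 differences. With 1 common lowest value for all samples, the median was 0 in each comparison. By histone type, the medians of H2A, H2B, H3 and H4 as deposited again equalled the differences of the lowest values. Those of H1 did not in the 2 comparisons with aged HSCs. For H2A, H2B, H3 and H4 the median difference was 0.42 in young minus aged and 0.26 in CASIN minus aged, and for the 6 H1 genes, of which 5 were detected somewhere, 0.026 and 0.16. No histone type had a member past the unadjusted threshold other than H2B in the last comparison.

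Members with long annotated transcripts were detected more often than those with short ones, as other genes were. The 32 members whose longest GENCODE transcript was at most 1000 nt were detected in 7.81% of pairs and the 14 longer ones in 17.3%. Of the 29 detections of the 14 longer members, Hist2h2be gave 7 and Hist1h2be 5, so the contrast leans on these 2 genes. GENCODE length can also differ from the RefSeq span, as for Hist1h1d (7425 nt against 776 bases), and reads were mapped to RefSeq. Other protein-coding genes of the table were detected in 22.2% of pairs at up to 1000 nt (1373 genes) and in 67.1% at over 4000 nt (6290 genes). Among the genes of at most 1000 nt, 34 cytosolic ribosomal protein genes, a highly expressed family, were detected in 52.5% of pairs. The 765 other protein-coding genes with a single exon were detected in 39.0%. The 5 members with a RefSeq span over 1000 bases (Hist2h2be, Hist1h2be, Hist1h2bc, Hist1h2bp and Hist1h2bq) were detected in 16 of 60 pairs (26.7%), and the other 41 in 43 of 492 (8.74%). Of these 16 detections, too, Hist2h2be gave 7 and Hist1h2be 5. The 28 members whose RefSeq end lies at the stem-loop were detected in 8.04%. Members with at least 50% of their sequence shared with other genes and those with less were detected equally often (10.7% each). These are descriptions over genes that share sequence and libraries, and the part of each feature was not tested.

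**Figure D4:**
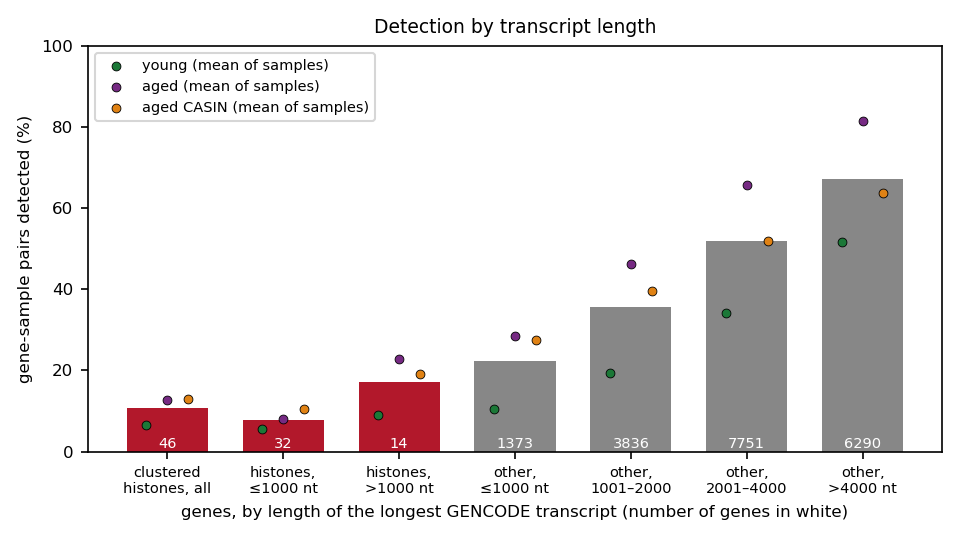
Share of gene-sample pairs detected (bars, %) for the clustered histone genes (red) and other protein-coding genes (grey) by the length of the longest GENCODE transcript; points give each group's mean over its samples and white figures the number of genes. Detection of other genes climbs from 22.2% to 67.1% with length, and the clustered histone genes lie below at 7.81% and 17.3%.

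The promoters of the clustered histone genes carry the elements known for this family. In the RefSeq windows from 250 bases before to 50 after the start (42 windows for 41 members), TATAAA on either strand was found in 57.1%, against 13.6% of all 32851 promoters. CCAAT on either strand was found in 88.1% against 37.4%, with a share of 100% in every type but H4 (37.5%). The octamer ATTTGCAT, the site of Oct factors such as that encoded by Pou2f1, was found in 26.2% against 1.74%, in 5 of 10 H2A and 6 of 12 H2B windows and in no window of another type. A match in these windows is a description of the sequence and not a bound site.

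In 5 places an H2A and an H2B member start back to back with start sites at most 281 bases apart. The H2B partner of Hist3h2a is the pseudogene Hist3h2bb-ps. The 2 genes of a pair were not detected together in any sample, and in 3 of the 5 pairs one gene was detected in no sample at all. In the remaining pairs, Hist1h2an and Hist2h2ac were each detected in 1 sample. With so few detections, the lack of joint detection says nothing about whether partners are used together. The pair Hist2h2ac and Hist2h2be is shown because its members were detected most unequally, Hist2h2ac in young replicate 3 (2.22) and Hist2h2be in 7 aged or CASIN-treated samples. Their start sites are 192 bases apart, and the stretch between them, read from Hist2h2be towards Hist2h2ac, holds CCAAT once and its complement ATTGG in 2 places, all in capitals, and TATAAA once, also in capitals, near the start of Hist2h2ac.
Hist2h2be to Hist2h2ac (chr3:96220881-96221071, mm10, minus strand): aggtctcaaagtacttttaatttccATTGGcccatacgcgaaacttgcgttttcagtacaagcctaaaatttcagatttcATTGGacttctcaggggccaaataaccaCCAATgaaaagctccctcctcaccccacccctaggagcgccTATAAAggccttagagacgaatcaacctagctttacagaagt
The transcript ends of the pair differ. Hist2h2ac has a stem-loop 57 nt before the end of a 520-nt transcript, and Hist2h2be has none in 2620 nt.

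The genes that act on histone mRNA, histone deposition and replication gave the following counts, none with an adjusted p under 0.05. In young against aged HSCs 0 genes of these 4 lists had an unadjusted p under 0.05 as higher, where 2.13% of all genes did. As lower, 5 genes had one, where 3.2% of all genes did. They were 1 of 17 histone genes outside the clusters (the testis H2B variant H2bfm), 2 of 24 chaperone genes (Ubn1 and Supt16) and 2 of 41 replication genes (Mcm7 and Rfc1). Of the 16 genes of histone mRNA control, 0 passed. Mcm7, a subunit of the replicative helicase, was detected in none of the 4 young samples and in each of the 5 aged samples (1.97 to 7.47). Its log2 difference was -3.74 ± 1.32 (SE; unadjusted p = 0.0168 in limma). Of all genes, 1.61% had every aged sample detected and above every young sample. In CASIN-treated against aged HSCs, 2.48% of all genes passed the unadjusted threshold as higher and 1.92% as lower. Of the 16 genes of histone mRNA control, 1 passed, as lower. This was Eri1, at 5.26 ± 1.59 (SD) in the 5 aged and 0.81 ± 0.35 in the 3 CASIN-treated samples, with a difference of -4.45 ± 1.10 (SE), an unadjusted p of 0.00198 and an adjusted p of 0.697 in limma. Its unadjusted p was 0.00843 or less in the 21 alternatives run. Of the 17 histone genes outside the clusters, 1 passed as higher and 2 as lower. H2afz, the gene for the variant H2A.Z, differed by -4.26 ± 1.56 (SE; unadjusted p = 0.0203 in limma), and of the other variants H1fnt differed by 1.86 and H2bfm by -3.15 on the log2 scale. Of the 24 chaperones, 2 passed, both as lower, with log2 differences of -3.57 for Ubn1 and -2.70 for Atrx. Of the 41 replication genes, 1 passed as higher and 2 as lower, with log2 differences of 4.33 for Pold1, -2.51 for Rfc1 and -3.16 for Ccna2. In CASIN-treated against young HSCs, Pou2f1 was 4.71 higher, and 5 of 41 replication genes passed the unadjusted threshold as higher, with Pold1, Gins3, Rpa1 and Lig1 at 3.24 to 3.85. Of all genes, 2.9% passed in this direction. With each sample left out in turn, Mcm7, Rfc1 and Lmo2 of the young against aged comparison and Eri1, Ubn1 and Pold1 of the CASIN-treated against aged comparison kept an unadjusted p under 0.05 throughout. The other differences named here, among them those of Pou2f1, Pold1, Gins3, Rpa1 and Lig1 against young HSCs, lost it without at least 1 sample. Without CASIN replicate 1, the difference of H1fnt was 0.75 (limma, unadjusted p = 0.0995) and that of Lig1 was 1.81 (limma, unadjusted p = 0.248). Slbp was detected in 1 young, 3 aged and 2 CASIN-treated samples.

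The sorted identity of the cells was checked on 2 marker lists. Of 16 HSC genes, 6 to 10 were detected in young, 10 to 15 in aged and 6 to 16 in CASIN-treated samples, with Meis1 and Runx1 in all 12. Lmo2, a transcription factor gene of HSCs, was the 1 marker with an unadjusted p under 0.05. Its log2 difference in young minus aged was 2.93 ± 1.02 (SE; unadjusted p = 0.0154, adjusted p = 0.764 in limma). Without young replicate 4 it was 1.95 (limma, unadjusted p = 0.0448). Of 15 genes of mature lineages and other sorted-out cells, 2 to 6, 7 to 10 and 2 to 11 were detected. The log2 of their summed level was 8.58 to 9.17 in young, 8.77 to 9.78 in aged and 8.64 to 9.38 in CASIN-treated samples. For the 16 HSC genes it was 8.649 to 9.730 in young, 8.504 to 9.682 in aged and 9.297 to 10.376 in CASIN-treated samples. The ranges of the 2 lists thus overlapped in each group. Whether the values are per length is not given, so the sums of the 2 lists are not ranked. Itgam and Cd8a were detected in all 12 samples, at up to 9.17 and 7.86, while Cd5 and Hbb-bt were detected in none. The part of other cells in the histone values was not tested.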

How the data were processed

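The 12 RNA-seq samples fall into 3 groups by their labels, with 4 young, 5 aged and 3 aged CASIN-treated samples of HSCs. Reads had been trimmed with trim galore at a phred score over 20, mapped to mm10 RefSeq by TopHat and passed to Cufflinks. The authors deposited log2 values for 22548 genes after quantile normalization. How the log2 values were made from the Cufflinks output, how reads shared between near-identical genes were assigned, and whether strand was used are not given in the sources used here. The values hold no counts, so the depth per sample is unknown. A gene was counted as detected in a sample where it stood above the lowest value of that sample, which ranged from 0 to 0.67.

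Members were taken by symbol. Members, gene lists and tests were chosen with earlier results of these data known. Differences were tested on the deposited log2 values with limma's two-sided test (version 3.58.1, under R 4.3.3), in 1 fit of 12 samples and 3 groups without a filter, with Benjamini-Hochberg adjustment over all 22548 genes. Members were named when their unadjusted p was under 0.05, when they were detected in at least 3 samples and were among the 2 largest rises or falls of their histone type, when they were among the 2 of their type with the highest mean of group means, and when they were detected in at least 10 samples or in none. Of the other lists, at most 4 genes per list and comparison with an unadjusted p under 0.05 were named, by p. Remaining members are described by counts and ranges, and a few features (ties, RefSeq ends, paired start sites) were singled out after their values were seen. Stem-loops and transcript lengths came from GENCODE M21 transcripts (GRCm38, mm10), gene spans from RefSeq on GRCm38.p6, and promoters from RefSeq. All 46 members matched the RefSeq table and 41 had a promoter sequence. Python 3.11.15 and matplotlib 3.10.9 were used. Alternatives were a common lowest value, centring, filters, another pseudocount, array weights, limma-trend, 2 groups only, a replicate block, other definitions of detection and each sample left out in turn. No batch is given in the labels.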

Additional observations from a re-analysis of the deposited data

Results flagged for a closer look

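In 3 of 20 tests of groups of 4 or 5 samples, 1 sample lay further from the others than Dixon's 95% critical value allows. That value is made for normally distributed data, while many of these values stand at the lowest value of their sample. The count of flags is therefore not set against a chance rate. Hist1h2be reached 5.19 in young replicate 3, while the other 3 young samples were at their lowest values. Hist2h2be reached 7.03 in aged replicate 5, against 0.22 to 1.36 in the other 4 aged samples. The share of H1 genes detected was 16.7% (1 gene, Hist1h1b) in young replicate 5 and 0 in the other young samples.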

How the results depend on the processing

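No member had an adjusted p under 0.05 (limma, Benjamini-Hochberg) in any of 21 settings of each comparison. Members below an unadjusted p of 0.05 numbered, for young against aged HSCs, 0 as deposited, 4 after centring, 7 with a pseudocount of 0.1, 25 with limma-trend, 1 with 2 groups only and 0 to 2 with a sample left out. All were higher in young HSCs, as were 4.83%, 4.48%, 7.16% and 1.8% of all genes in the first 4 of these alternatives. In CASIN-treated against aged HSCs they numbered 0 as deposited, 1 after centring, 1 with a pseudocount of 0.1, 2 with array weights, 3 with limma-trend and 0 to 5 with a sample left out (5 without CASIN replicate 2). All were higher after CASIN, as were 4.31%, 3.81%, 2.83%, 4.21% and, without CASIN replicate 2, 4.34% of all genes. In CASIN-treated against young HSCs they numbered 1 as deposited, 0 with limma-trend and 0 to 4 with a sample left out (4 without CASIN replicate 2, all higher, as were 4.19% of all genes). The cause was not tested. Same-numbered samples had correlations of -0.033 to 0.058 between their deviations, and other pairs between groups -0.047 to 0.033. The highest was that of aged replicate 2 with CASIN replicate 2. Whether the numbers pair the samples is not given and cannot be told from values this small. With the replicate block the members past the unadjusted threshold numbered 1 in young against aged and 0 in CASIN-treated against young HSCs, and Hist1h1e turned to -0.13 in CASIN minus young.

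The median difference in young minus aged was 0 with a common lowest value, 0.87 after centring, 0.18 over members detected in at least 3 samples, 1.56 with the pseudocount of 0.1 and 0.38 to 0.46 with a sample left out. In CASIN minus aged it was 0, 0.61, 1.13, 0.80 and 0.15 to 0.46 in the same order. In CASIN minus young it was -0.43 over members detected in at least 3 samples, -0.75 with the pseudocount and -0.27 to 0.042 with a sample left out. The share of members detected in aged HSCs was 9.57% when 1 log2 unit above the lowest value was required, 10.0% at a value of at least 1 and 1.30% among the 6078 highest genes, where it was 5.07% in CASIN-treated HSCs. With a sample left out it was 5.80% to 7.97% in young, 11.96% to 13.0% in aged and 9.78% to 16.3% in CASIN-treated HSCs.

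Single genes turned in sign. In young minus aged, Hist1h1e was -0.12 with a common lowest value, and Hist3h2a was 0.13 after centring and 0.066 with the pseudocount. With a sample left out, Hist1h1e ran from -0.044 to 0.26, Hist1h2be from -0.87 to 0.78 and Hist3h2a from -0.54 to 0.015. In CASIN minus aged, Hist1h1e ran from -0.20 to 2.23 and Hist1h2af from -0.088 to 1.51. In CASIN minus young, Hist1h1e ran from -0.27 to 2.16, Hist1h2be from -1.51 to 0.074, Hist1h3f from -2.74 to 0.44 and Hist3h2a from -0.12 to 0.042. A mean of at least 3 left no member to test. Depth is unknown, so values at the lowest level say only that a gene was not detected.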
